A study of Mus musculus with 8 samples.

Results

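The genes described here encode 10 membrane proteins that move bile acids (BAs) and phospholipids across the plasma membrane of the liver cell. They were picked by symbol from the 24940 genes counted in mouse liver. The rule named no measured value, but the choice was made with earlier results of these data known. They are *Slc10a1* (NTCP), *Slc10a2* (ASBT), *Abcb11* (BSEP), *Abcb4* (MDR2), *Abcc2* (MRP2), *Abcc3* (MRP3), *Abcc4* (MRP4), *Slc51b* (OSTβ), *Atp8b1* (FIC1) and *Abcb1a* (MDR1A). Liver RNA was sequenced from 4 *Fxr* knockout males (FxrKO) and 4 males that also lacked hepatic *Bcl6* (Bcl6LKO FxrKO), all on a C57BL/6 background. Both genotypes were homozygous for the *Fxr* allele, which removes the BA receptor FXR from the whole body, and both carried floxed *Bcl6* alleles. *Alb-Cre*, a recombinase driven by the albumin promoter and thus active mainly in hepatocytes, was present in the Bcl6LKO FxrKO males and absent from the FxrKO males. Each comparison below therefore sets loss of hepatocyte *Bcl6* against its presence where *Fxr* was already lost, and no liver with intact *Fxr* was analysed. It also sets the Cre transgene against its absence, and an effect of Cre itself cannot be told apart from the loss of *Bcl6*. The age of the mice was not given in the sources used here, and the mice were either fed ad libitum or fasted for 4 hours. The labels list 4 samples per genotype without stating their litters or collection days, so the p-values measure the spread between these samples.

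Hepatocytes take up BAs from portal blood across the sinusoidal membrane, mainly through NTCP with help from organic anion transporters. They secrete them into the canaliculus through BSEP, while MDR2 releases phosphatidylcholine into bile, where it forms mixed micelles that shield the biliary epithelium, and FIC1 keeps the canalicular membrane asymmetric. When canalicular secretion fails, MRP3, MRP4 and the heterodimer OSTα/OSTβ can return BAs to the blood across the basolateral membrane. FXR is a known activator of several of these export genes.

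The livers yielded between 7586241 and 11839503 counts on genes, and 12340 genes had enough counts to be tested with edgeR's quasi-likelihood test. *Bcl6* fell from 49.6 ± 19.4 to 7.44 ± 3.24 CPM (counts after scaling each library to the same size, SD, n = 4 in each genotype), and its levels in the 2 genotypes did not overlap. *Nr1h4*, the gene of FXR, still gave transcript counts in every liver, at 60 ± 2.46 CPM in FxrKO and 43.5 ± 3.69 CPM in Bcl6LKO FxrKO livers (SD, n = 4 each). It was called lower in the latter without overlap (log2 fold change -0.46, SE 0.10, edgeR adjusted p = 0.00497). No liver with intact *Fxr* was analysed to set these counts against. The share of all counts that fell on the 50 most counted genes was 31.2% to 32.6% in FxrKO livers and 41.7% to 45.1% in Bcl6LKO FxrKO livers. *Alb*, the albumin gene, alone went from 44554 ± 4422 to 135490 ± 8122 CPM (SD, n = 4 each). Its promoter also drives the Cre transgene. Scaling matters for this reason, and ratios between transporters within a liver, which no scaling can change, are given beside the fold changes.

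Of the 10 transporters, 2 were higher and 3 were lower in Bcl6LKO FxrKO than in FxrKO livers at an adjusted p under 0.05 (edgeR, Benjamini-Hochberg over all 12340 genes tested). *Abcc4* and *Abcb1a* rose, and *Slc10a1*, *Abcc3* and *Abcb4* fell. Another 4, *Slc10a2*, *Abcb11*, *Atp8b1* and *Abcc2*, did not pass the test, and *Slc51b* had no counts in any liver and could not be tested. Among all genes tested, 16.2% were called higher and 13.5% lower, so the number of calls among so few transporters says little and the values of each are what can be read. In the same 5 called transporters the 4 livers of each genotype did not overlap, with all Bcl6LKO FxrKO livers above all FxrKO livers in 2 and below them in 3. That held for 16.1% of all genes tested in the upward direction and for 15.2% in the downward direction. The sum over whole liver tissue cannot tell fewer cells of a type from less RNA per cell.

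**Figure D1:**
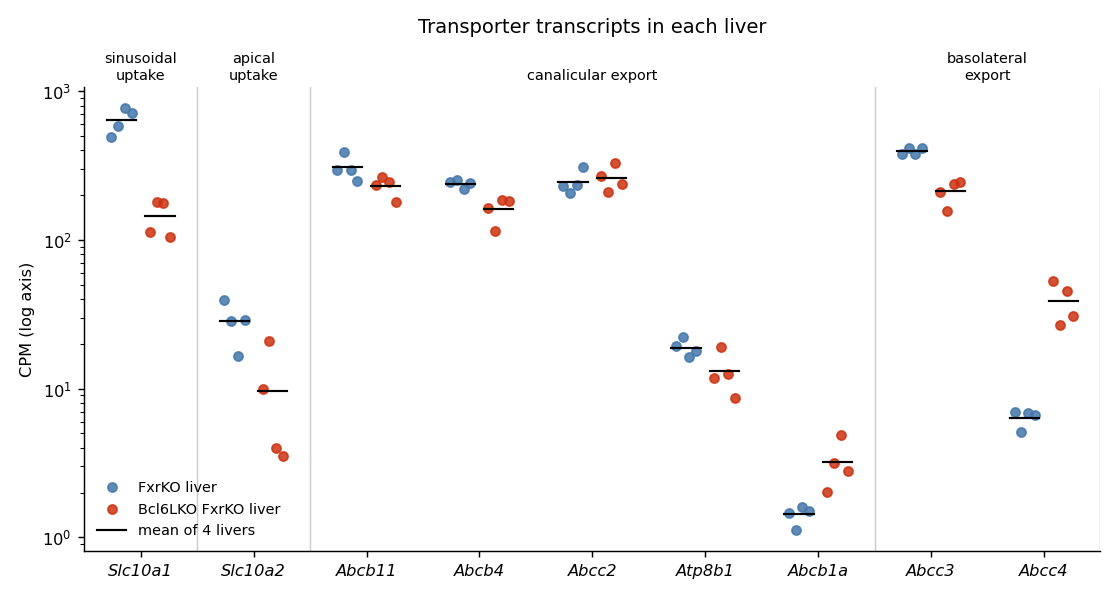
CPM (log axis) of the 9 transporters with counts in each of 4 FxrKO livers (blue) and 4 Bcl6LKO FxrKO livers (red), grouped by membrane role, with a black line at each mean. The genotypes separate without overlap in *Slc10a1*, *Abcb4*, *Abcb1a*, *Abcc3* and *Abcc4*, and *Slc51b*, at 0 counts in all 8 livers, is not drawn.

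The promoters of 4 transporters with different behaviour are shown, because they give the sequence context of an uptake carrier that fell, a canalicular pump that was not called, a basolateral pump that rose and a carrier with no counts. Each is the 250 bases before the start of the counted transcript from RefSeq (GRCm38.p6, the assembly of mm10), written 5′ to 3′ on the strand of the gene. All 4 genes lie on the minus strand. The windows are chr12:80968706-80968955 for *Slc10a1*, chr2:69342617-69342866 for *Abcb11*, chr14:118706220-118706469 for *Abcc4* and chr9:65422774-65423023 for *Slc51b*. Capitals mark matches, on either strand, to any of 3 short motifs, namely TTCNNNGAA, the type of letters bound by STAT5 and BCL6, TGACNNNGC, the core of the antioxidant response element bound by NRF2, and AGGTCA, the element that nuclear receptors bind singly or in pairs.
Slc10a1: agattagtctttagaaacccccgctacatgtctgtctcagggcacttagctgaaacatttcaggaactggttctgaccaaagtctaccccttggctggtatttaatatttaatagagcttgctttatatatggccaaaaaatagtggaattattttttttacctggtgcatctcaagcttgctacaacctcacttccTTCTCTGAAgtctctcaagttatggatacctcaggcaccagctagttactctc
Abcb11: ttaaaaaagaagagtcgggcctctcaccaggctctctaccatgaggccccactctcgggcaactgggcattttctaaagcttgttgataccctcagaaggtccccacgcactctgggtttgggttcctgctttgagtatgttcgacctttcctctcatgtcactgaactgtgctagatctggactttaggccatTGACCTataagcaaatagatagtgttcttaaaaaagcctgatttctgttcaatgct
Abcc4: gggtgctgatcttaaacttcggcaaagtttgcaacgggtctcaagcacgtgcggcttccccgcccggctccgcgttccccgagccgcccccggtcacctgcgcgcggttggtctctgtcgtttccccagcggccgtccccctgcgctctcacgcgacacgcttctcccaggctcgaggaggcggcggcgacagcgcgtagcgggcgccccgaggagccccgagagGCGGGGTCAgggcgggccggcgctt
Slc51b: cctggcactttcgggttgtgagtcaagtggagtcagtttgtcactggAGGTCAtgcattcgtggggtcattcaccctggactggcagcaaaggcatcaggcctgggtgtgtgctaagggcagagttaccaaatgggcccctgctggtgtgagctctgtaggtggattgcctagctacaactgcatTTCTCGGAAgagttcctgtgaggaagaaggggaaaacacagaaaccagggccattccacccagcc

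*Slc10a1* held a TTCNNNGAA match from 53 to 45 bases before its start, and *Slc51b* held one from 65 to 57 bases before. *Abcb11* held AGGTCA on the reverse strand from 56 to 51 bases before its start, *Slc51b* held it from 203 to 198 bases before, and *Abcc4* held TGACNNNGC on the reverse strand from 25 to 17 bases before. RefSeq windows were given for 8 of the 10 genes, with none for *Abcc3* and *Atp8b1*. Of the other 4, *Abcc2* held both TGACNNNGC and AGGTCA, and *Slc10a2*, *Abcb4* and *Abcb1a* held no match. Among 32841 windows of the same length, TTCNNNGAA was found in 7.02%, TGACNNNGC in 10.2% and AGGTCA in 14.0%. The pair of AGGTCA elements facing each other with 1 base between, the classical FXR element, was in 2 of the 32841 windows and in none of the 8. Only exact letters were searched, and in *Abcb11* the letters aggcca lie 1 base before the marked match. The 8 windows may thus hold inexact forms of the element. No match overlapped another in these 8 windows. A match here describes letters, and a window without one says nothing about the factor.

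Of the 9 tested transporters, the sinusoidal uptake carrier had the largest fall. *Slc10a1* encodes NTCP, the sodium-dependent carrier that brings conjugated BAs into hepatocytes (NM_001361972, mm10 chromosome 12 from 80953185 to 80968705, minus strand). It was at 491, 583, 765 and 716 CPM in FxrKO livers 1 to 4 and at 112, 181, 178 and 104 CPM in Bcl6LKO FxrKO livers 1 to 4. The highest Bcl6LKO FxrKO liver was thus far under the lowest FxrKO liver. The level was 4.44-fold lower, a log2 fold change of -2.15 (SE 0.21, 95% interval -2.61 to -1.69, edgeR adjusted p = 1.2e-05). The exact two-sided permutation p over the 70 orderings of the 8 livers was 0.0286, the smallest that 4 against 4 allows.

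The organic anion carriers that share the sinusoidal membrane with NTCP did not move as a block. *Slco1a1* (OATP1A1) was between 200 and 297 CPM in FxrKO livers and between 0.726 and 2.31 CPM in Bcl6LKO FxrKO livers, a log2 fold change of -7.50 (SE 0.26, edgeR adjusted p = 7.85e-10). *Slco1b2* (OATP1B2) went from 1148 ± 115 to 332 ± 74.8 CPM (SD, n = 4 each), a log2 fold change of -1.79 (SE 0.16, edgeR adjusted p = 5.2e-06). *Slco2b1* (OATP2B1) had a smaller fall, from 203 to 152 CPM on average without overlap, a log2 fold change of -0.41 (SE 0.12, edgeR adjusted p = 0.021). *Slco1a4* (OATP1A4) was at 62.8 ± 20.6 and 71.6 ± 19.6 CPM (SD, n = 4 each), did not pass the test (edgeR adjusted p = 0.602) and overlapped between genotypes.

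*Slc10a2* encodes ASBT, the apical sodium-dependent carrier of the ileum and of bile duct cells, which belongs to the same family as NTCP (NM_011388, chromosome 8 from 5083219 to 5105287, minus strand). It was at 39.6, 28.6, 16.6 and 28.9 CPM in FxrKO livers and at 9.97, 21.0, 3.99 and 3.54 CPM in Bcl6LKO FxrKO livers. Bcl6LKO FxrKO liver 2 lay above FxrKO liver 3, so the genotypes overlapped, and the values within the Bcl6LKO FxrKO genotype ran from 39 to 173 counts. The log2 fold change was -1.59 with a 95% interval from -2.92 to -0.27 before adjustment, and the adjusted p was 0.0726 (edgeR). Without Bcl6LKO FxrKO liver 2 the log2 fold change was -2.30 and the adjusted p 0.00373 (edgeR). That was the 1 call in 8 fits with 1 liver left out, and the adjusted p rose to 0.1475 without Bcl6LKO FxrKO liver 4 (edgeR). The exact permutation p with all 8 livers was 0.0571. Bile duct cells are the cells of the liver known for ASBT. Of 16 of their markers listed, 10 were tested and 4 were called higher and 0 lower, or 1 lower with total counts alone and without FxrKO liver 3. Among all genes tested 16.2% were called higher and 13.5% lower. *Cldn4* had 2 to 4 counts in FxrKO and 14 to 38 in Bcl6LKO FxrKO livers, and *Prom1* 5 to 13 and 185 to 500. Both had enough counts to be tested only through the Bcl6LKO FxrKO livers, so neither could well be called lower. *Sox9* and *Pkhd1*, which were not called, had log2 fold changes of -0.81 and -0.37. The summed level of the 16 was between 64.8 and 95.5 CPM in FxrKO and between 118.9 and 227.2 CPM in Bcl6LKO FxrKO livers. *Spp1* and *Prom1* made up much of it, and without this pair, a choice made after seeing the data, the sums of the other 14 overlapped, at 26.1 to 40.7 against 34.7 to 43.5 CPM. *Krt19*, which defines these cells, was at 1.03 and 2.54 CPM on average, none of the listed markers averaged 0 in either genotype, and the part of these cells in the level of *Slc10a2* was not tested.

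Of the 5 canalicular transporters, 1 was called higher and 1 lower, too few to set against the 16.2% and 13.5% of all genes tested. Their median log2 fold change was -0.42. *Abcb11* encodes BSEP, the main pump of BAs into bile (NM_021022, chromosome 2 from 69238282 to 69342616, minus strand). It was at 294, 391, 294 and 250 CPM in FxrKO livers and at 234, 264, 244 and 180 CPM in Bcl6LKO FxrKO livers. FxrKO liver 4 lay under Bcl6LKO FxrKO liver 2, so the genotypes overlapped. The log2 fold change was -0.42 (SE 0.16, 95% interval before adjustment -0.75 to -0.08, edgeR adjusted p = 0.0607), and the exact permutation p was 0.0571. Its call depended on single livers, and it was called in 2 of 8 fits with 1 liver left out. Leaving out FxrKO liver 4 gave an adjusted p of 0.0394 and leaving out Bcl6LKO FxrKO liver 2 one of 0.0437 (both edgeR). Without FxrKO liver 2 the log2 fold change was -0.28 and the adjusted p 0.198 (edgeR). In GENCODE M21, 155 exon bases of *Abcb11* are shared with an antisense transcript and a pseudogene on the opposite strand, and the stated counting options name no strand.

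*Abcb4* encodes MDR2, the floppase that delivers phosphatidylcholine to bile (NM_008830, chromosome 5 from 8893721 to 8959226, plus strand). It was at 244, 254, 219 and 240 CPM in FxrKO livers and at 163, 114, 185 and 182 CPM in Bcl6LKO FxrKO livers. FxrKO livers lay close together here, and none of them reached down to the Bcl6LKO FxrKO range. *Abcb4* fell 1.48-fold, a log2 fold change of -0.57 (SE 0.15, edgeR adjusted p = 0.0109), and it was called in each of 15 alternative analyses, with adjusted p between 0.00171 and 0.0338.

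*Abcc2* encodes MRP2, the canalicular pump for conjugated bilirubin and divalent BA conjugates (NM_013806, chromosome 19 from 43782308 to 43838218, plus strand). Its levels were 231, 206, 236 and 308 CPM in FxrKO livers and 270, 208, 331 and 237 CPM in Bcl6LKO FxrKO livers. Both genotypes covered nearly the same range. The log2 fold change was 0.09, with a 95% interval from -0.25 to 0.44 (edgeR adjusted p = 0.699, exact permutation p = 0.6). Its sign turned when libraries were scaled by total counts alone and when Bcl6LKO FxrKO liver 3 was left out, so no direction can be given.

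*Atp8b1* encodes FIC1, the flippase that returns phospholipid to the inner leaflet of the canalicular membrane (NM_001001488, chromosome 18 from 64528979 to 64661000, minus strand). It was at 19.3, 22.1, 16.3 and 17.8 CPM in FxrKO livers and at 11.78, 19.2, 12.6 and 8.72 CPM in Bcl6LKO FxrKO livers. Bcl6LKO FxrKO liver 2 fell inside the FxrKO range and the other 3 fell below it. The log2 fold change was -0.54 (SE 0.21, 95% interval before adjustment -0.98 to -0.09, edgeR adjusted p = 0.0663), and without that liver it was -0.78 (edgeR adjusted p = 0.00622). That was the 1 call in 8 fits with 1 liver left out, and the adjusted p rose to 0.166 without FxrKO liver 2 (edgeR). *Tmem30a*, the partner subunit that FIC1 needs to leave the endoplasmic reticulum, was at 110 ± 5.76 and 83.4 ± 20.5 CPM (SD, n = 4 each) and was not called (edgeR adjusted p = 0.0831), though it was without Bcl6LKO FxrKO liver 3 (edgeR adjusted p = 0.043).

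*Abcb1a* encodes a P-glycoprotein that exports drugs and other hydrophobic compounds (NM_011076, chromosome 5 from 8567091 to 8748575, plus strand). It was at 1.46, 1.13, 1.61 and 1.51 CPM in FxrKO livers and at 2.01, 3.16, 4.87 and 2.82 CPM in Bcl6LKO FxrKO livers. All Bcl6LKO FxrKO livers lay above all FxrKO livers, on counts of only 9 to 16 against 20 to 50 reads per liver. The log2 fold change was 1.16 (SE 0.31, edgeR adjusted p = 0.0129). Its near-identical neighbour *Abcb1b* was at 1.60 ± 0.553 and 0.839 ± 0.611 CPM (SD, n = 4 each) and was not called (edgeR adjusted p = 0.138), though it was lower without Bcl6LKO FxrKO liver 2 (edgeR adjusted p = 0.0286). Reads that fit both genes were not kept, so the split between this pair is uncertain. Another 553 exon bases of *Abcb1a* are shared in GENCODE M21 with an unconfirmed transcript on the opposite strand.

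At the basolateral membrane the 2 pumps with counts went in opposite directions. *Abcc4* encodes MRP4, which exports BAs together with glutathione (NM_001033336, chromosome 14 from 118482692 to 118706219, minus strand). It was at 6.97, 5.12, 6.88 and 6.62 CPM in FxrKO livers and at 53.1, 26.8, 45.6 and 30.8 CPM in Bcl6LKO FxrKO livers. Each Bcl6LKO FxrKO liver was far above each FxrKO liver. *Abcc4* rose 6.08-fold, a log2 fold change of 2.60 (SE 0.22, 95% interval 2.12 to 3.08, edgeR adjusted p = 3.13e-06), and the exact permutation p was 0.0286.

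*Abcc3* encodes MRP3, which exports glucuronides and BAs to the blood (NM_029600, chromosome 11 from 94343295 to 94392976, minus strand). It was at 380, 413, 380 and 415 CPM in FxrKO livers and at 209, 156, 237 and 247 CPM in Bcl6LKO FxrKO livers. The FxrKO livers were tightly grouped and all lay above the others. *Abcc3* fell 1.87-fold, a log2 fold change of -0.91 (SE 0.14, 95% interval -1.21 to -0.60, edgeR adjusted p = 4.27e-04).

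*Slc51b* encodes OSTβ, the small subunit of the OSTα/OSTβ exchanger and a well-known FXR target (NM_178933, chromosome 9 from 65412753 to 65422773, minus strand). It had 0 counts in all 8 livers, and so did *Slc51a*, the gene of its partner OSTα. A count of 0 allows up to 3 counts, which for this short transcript of 482 bases is between 0.565 and 0.778 RPKM (CPM per kilobase of transcript) in these libraries. No comparison between genotypes can be made below that level. Such floors, like any interval on counts, cover counting error only.

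**Figure D2:**
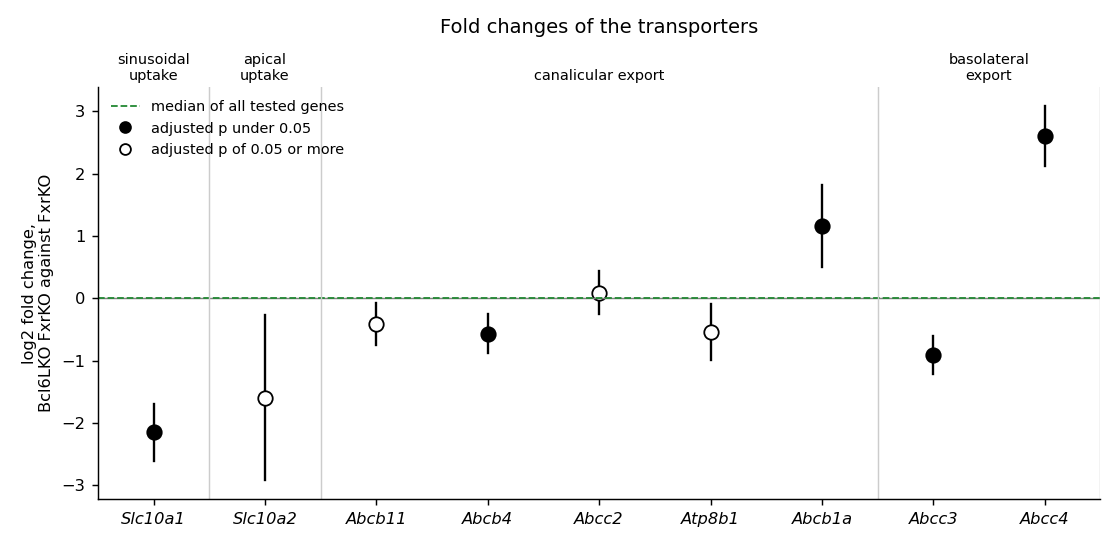
Log2 fold change of each tested transporter in Bcl6LKO FxrKO against FxrKO livers (vertical axis), with bars for the 95% interval of the edgeR fit before adjustment, filled symbols for adjusted p under 0.05 and a dashed line at the median of all tested genes (0.01). *Slc10a1* at -2.15 and *Abcc4* at 2.60 lie farthest from 0 among the called genes, and the canalicular genes lie between -0.57 and 1.16.

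Per length, the order of the transporters differed between the genotypes. In FxrKO livers *Slc10a1* stood alone at 367 ± 71.9 RPKM (SD, n = 4), and *Abcc3* at 79.9 ± 3.93, *Abcb11* at 63.2 ± 12.3, *Abcb4* at 59.1 ± 3.63 and *Abcc2* at 45.8 ± 8.20 RPKM followed, each overlapping its neighbour. *Slc10a2* at 6.96 ± 2.30, *Atp8b1* at 2.94 ± 0.385, *Abcc4* at 1.12 ± 0.152 and *Abcb1a* at 0.277 ± 0.0411 RPKM came next, and no liver of one reached the range of the next. In Bcl6LKO FxrKO livers *Slc10a1* was at 82.7 ± 23.8 RPKM (SD, n = 4) and no longer stood apart from the next gene. *Abcc2* at 48.8 ± 9.79, *Abcb11* at 47.3 ± 7.37, *Abcc3* at 42.7 ± 8.24 and *Abcb4* at 39.9 ± 8.09 RPKM overlapped their neighbours. *Abcc4* moved up to 6.86 ± 2.17 RPKM, above *Slc10a2* at 2.36 ± 1.99 RPKM on average. Their ranges still overlapped, at 4.71 to 9.32 against 0.868 to 5.15 RPKM. *Atp8b1* at 2.04 ± 0.687 and *Abcb1a* at 0.625 ± 0.234 RPKM were lowest among genes with counts. After its rise *Abcc4* was thus still well below *Abcc3*, at 4.71 to 9.32 RPKM against 31.3 to 49.6 RPKM.

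Because *Abcc3* is the more abundant basolateral pump, the summed level of the basolateral genes went down although *Abcc4* rose. The sum was 81.0 ± 3.83 RPKM in FxrKO and 49.5 ± 9.22 RPKM in Bcl6LKO FxrKO livers (SD, n = 4 each), with livers between 77.7 and 84.7 RPKM in the former and between 36.0 and 55.7 RPKM in the latter. The summed level of the 5 canalicular genes was 171 ± 10.2 against 139 ± 16.2 RPKM (SD, n = 4 each), and the least FxrKO liver, at 161.4 RPKM, was just above the greatest Bcl6LKO FxrKO liver, at 160.7 RPKM. These sums are of transcripts and were not tested, since the genes that enter them were tested singly.

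Ratios between transporters in the same liver compare the membrane roles free of any scaling. *Slc10a1* had 1.67, 1.49, 2.60 and 2.87 counts for each count of *Abcb11* in FxrKO livers and 0.480, 0.687, 0.729 and 0.580 in Bcl6LKO FxrKO livers. The log2 ratio was 1.05 ± 0.466 against -0.71 ± 0.271 (SD, n = 4 each), a 3.40-fold lower ratio of uptake carrier to canalicular pump with no overlap (exact two-sided permutation p = 0.0286). *Abcc4* had between 0.0133 and 0.0267 counts for each count of *Abcb11* in FxrKO livers and between 0.102 and 0.227 in Bcl6LKO FxrKO livers, a 7.81-fold higher ratio (exact permutation p = 0.0286). *Abcc4* against *Slc10a1* joined both changes, at 0.0089 to 0.0143 in FxrKO and 0.149 to 0.474 in Bcl6LKO FxrKO livers, 26.5-fold higher (exact permutation p = 0.0286). Since *Abcc4* and *Slc10a1* each separated, in opposite directions, this ratio had to separate and adds no further support.

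The remaining pairs overlapped between genotypes. *Abcc3* against *Abcb11* gave a log2 ratio of 0.39 ± 0.267 in FxrKO and -0.13 ± 0.5 in Bcl6LKO FxrKO livers (SD, n = 4 each, exact permutation p = 0.114), and *Abcb4* against *Abcb11* gave -0.35 ± 0.240 and -0.53 ± 0.507 (exact permutation p = 0.6). Adjusted by Benjamini-Hochberg over the 5 ratios that could be formed, the 3 separated ratios had p = 0.0476 in the exact permutation test. That adjustment counts the ratio of *Abcc4* to *Slc10a1*, which had to separate, and it was not computed without that ratio. A ratio of *Slc51b* to *Abcb11* had also been planned and was not formed, as *Slc51b* had no counts, and counting it as a 6th comparison gives p = 0.0571 in place of 0.0476 for the permutation tests.

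**Figure D3:**
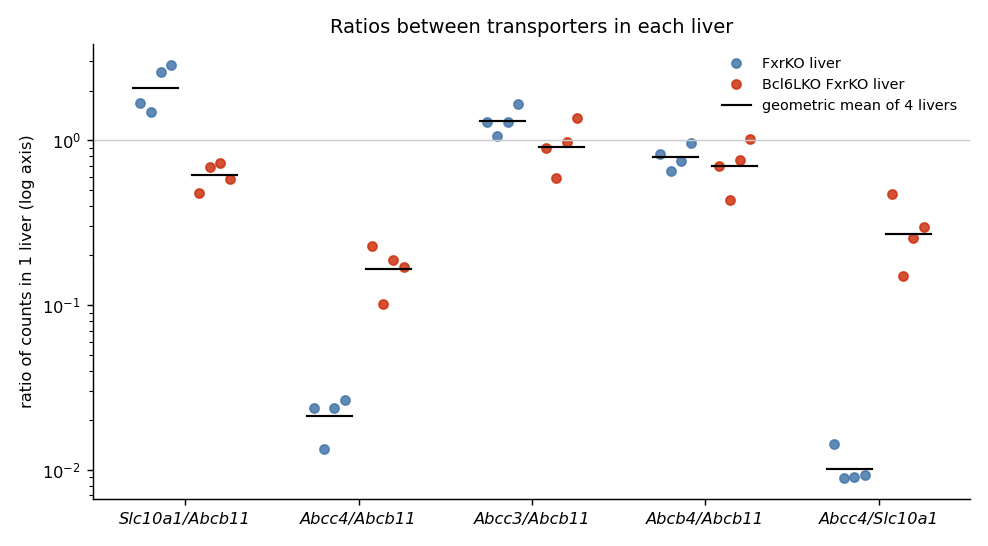
Ratio of counts between 2 transporters within each liver (log axis, 0.5 added to each count), for 4 FxrKO (blue) and 4 Bcl6LKO FxrKO (red) livers, with a black line at each geometric mean. *Slc10a1*/*Abcb11*, *Abcc4*/*Abcb11* and *Abcc4*/*Slc10a1* separate without overlap, while *Abcc3*/*Abcb11* and *Abcb4*/*Abcb11* overlap.

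Among livers of one genotype the transporters differed in their spread, which includes counting error and was not tested. In FxrKO livers the SD was 4.92% of the mean for *Abcc3* and 6.14% for *Abcb4*, and 33.1% for *Slc10a2*, the most variable. In Bcl6LKO FxrKO livers the SD was 15.6% of the mean for *Abcb11* and 84.4% for *Slc10a2*, and *Abcc3* and *Abcb4* reached 19.3% and 20.3%. Bcl6LKO FxrKO liver 2 was the highest of its genotype in 4 transporters, *Slc10a1*, *Slc10a2*, *Abcb11* and *Atp8b1*, and the lowest in 4 others, *Abcb4*, *Abcc2*, *Abcc3* and *Abcc4*. Bcl6LKO FxrKO liver 4 was the lowest in the first 4. Without liver 2, 6 transporters were called lower in place of 3, while 2 stayed called higher in number.

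Of 16 other carriers tested that handle bile components, 3 were called higher and 9 lower, beside 16.2% and 13.5% of all genes tested. The median of their log2 fold changes was -0.66 against 0.01 for all genes tested. Beside *Slco1a1* and *Slco1b2*, *Abcg2*, the exporter BCRP, fell from 89.4 ± 4.91 to 43.7 ± 4.99 CPM (SD, n = 4 each, log2 fold change -1.03, edgeR adjusted p = 2.07e-05). *Abcc5* and *Abcc1*, organic anion pumps related to MRP4, rose with log2 fold changes of 1.15 and 0.94 (edgeR adjusted p = 2.51e-04 and 0.0119), to 9.61 and 3.77 CPM. *Ephx1*, an epoxide hydrolase once proposed as a BA carrier, rose with a log2 fold change of 0.69 (edgeR adjusted p = 0.003). It is counted again below among the NRF2 targets called higher.

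Among 20 tested genes that anchor or deliver proteins to the canalicular membrane, 4 were called higher and 4 lower. These counts say little beside the 16.2% of all genes tested that were called higher and the 13.5% lower. The median of their log2 fold changes was 0.01. *Kif12*, a kinesin-family gene that causes cholestasis in children when mutated, was at 0.899 ± 0.257 CPM in FxrKO and 17 ± 0.976 CPM in Bcl6LKO FxrKO livers (SD, n = 4 each), a log2 fold change of 4.21 (SE 0.21, edgeR adjusted p = 1.55e-08). *Myo5b*, the myosin motor of apical recycling vesicles, rose with a log2 fold change of 1.03 (edgeR adjusted p = 5.87e-05). The linkers of membrane proteins to actin were split. *Slc9a3r1* (NHERF1) and *Rdx* (radixin) fell, with log2 fold changes of -0.996 and -0.50 (edgeR adjusted p = 5.83e-05 and 0.0152), while *Ezr* (ezrin) rose by 0.99 (edgeR adjusted p = 0.00206). *Mal2*, which takes part in transcytosis to the apical membrane, fell with a log2 fold change of -1.55 (edgeR adjusted p = 1.99e-04).

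Of 22 tested genes for transcription factors and signalling proteins known to act on these transporters, 2 were called higher and 9 lower. Among all genes tested 16.2% were called higher and 13.5% lower. The calls lower include *Nr1h4*, the gene targeted in all 8 livers, and with 1 liver left out they numbered 6 to 9. Calls higher then numbered 0 to 2. The median of the log2 fold changes in this list was -0.45. *Nr0b2*, the gene of the repressor SHP, was at 12.4 ± 3.75 CPM in FxrKO and 0.871 ± 0.466 CPM in Bcl6LKO FxrKO livers (SD, n = 4 each), a log2 fold change of -3.85 (SE 0.34, edgeR adjusted p = 4.14e-06). *Ppara*, the fatty acid receptor, and *Cebpa*, a hepatocyte factor, fell with log2 fold changes of -0.99 and -0.70 (edgeR adjusted p = 0.00104 and 0.00316). *Keap1* and *Nfe2l2*, the gene of NRF2, rose by 0.38 each on the log2 scale (edgeR adjusted p = 0.0183 and 0.0395), but *Nfe2l2* overlapped between genotypes and lost its call in 8 of 15 alternative analyses, and *Keap1* lost its call in 3, among them the scaling by total counts alone for both.

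NRF2 targets are of interest here because MRP3 and MRP4 are both known as such targets, and *Abcc3* fell while *Abcc4* rose. Of 13 tested NRF2 targets, edgeR called 7 higher and 0 lower (also 0 lower at an unadjusted p under 0.05, with DESeq2 and with limma voom). Among all genes tested 16.2% were called higher and 13.5% lower. The log2 fold changes of these targets had a median of 0.88. *Gstm3*, a glutathione transferase, went from 202 ± 62.4 to 1002 ± 263 CPM (SD, n = 4 each, log2 fold change 2.31, edgeR adjusted p = 2.77e-05). *Nqo1*, a quinone reductase, and *Srxn1*, a sulfiredoxin, rose with log2 fold changes of 1.797 and 1.74 (edgeR adjusted p = 1.09e-04 and 1.86e-04). *Gclc*, *Gclm* and *Txnrd1*, also in this list, had log2 fold changes of -0.15, -0.08 and -0.10 and were not called.

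The BA synthesis and conjugation genes had 16 tested members, of which edgeR called 0 higher (also 0 at an unadjusted p under 0.05, with DESeq2 and with limma voom) and 11 lower. Among all genes tested 16.2% were called higher and 13.5% lower. The median log2 fold change of these synthesis genes was -0.49. *Slc27a2*, a fatty acyl and BA coenzyme A ligase, *Cyp39a1*, an oxysterol hydroxylase, and *Scp2*, the peroxisomal thiolase of side-chain shortening, fell with log2 fold changes of -1.34, -2.14 and -1.45 (edgeR adjusted p = 2.9e-06, 4.05e-06 and 6.07e-06). The largest fall in the list was that of *Cyp7b1*, an enzyme of the alternative pathway. It went from 267 to 34.5 CPM on average without overlap, a log2 fold change of -2.95 (edgeR adjusted p = 1.67e-05). *Cyp7a1*, the rate-limiting enzyme of the classical pathway, was at 89.7, 119, 412 and 478 CPM in FxrKO livers and at 434, 380, 558 and 262 CPM in Bcl6LKO FxrKO livers, so the genotypes overlapped and it was not called (edgeR adjusted p = 0.5).

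**Figure D4:**
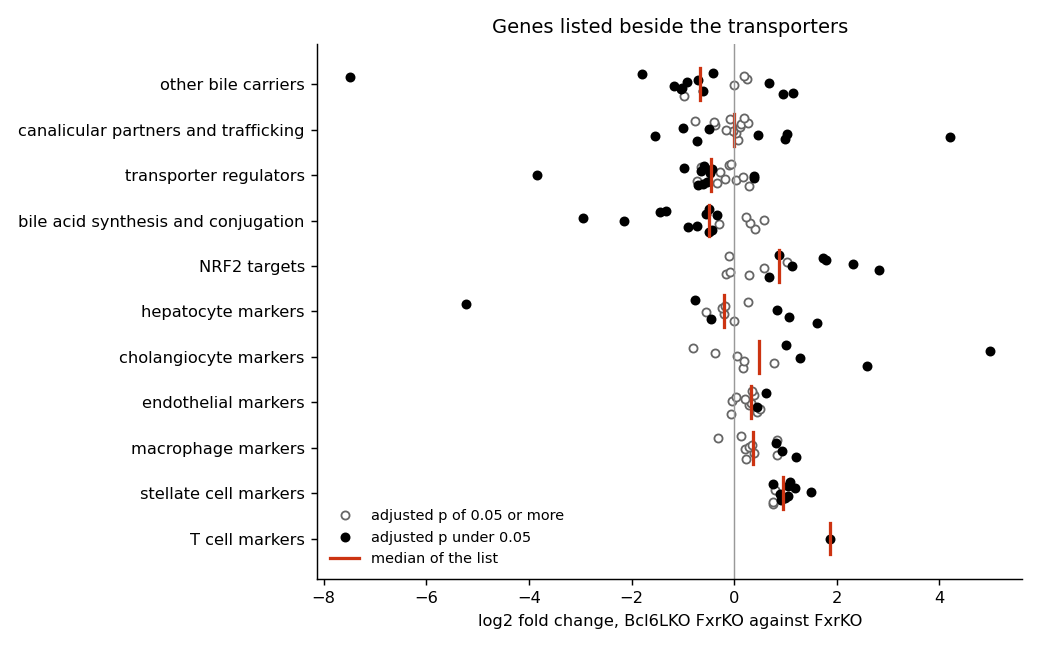
Log2 fold change in Bcl6LKO FxrKO against FxrKO livers (horizontal axis) of every tested gene in 11 lists, with filled circles for adjusted p under 0.05, open circles for the rest and a red line at the median of each list. NRF2 targets and stellate cell markers lie mostly above 0 (medians 0.88 and 0.95), and other bile carriers and BA synthesis genes mostly below (medians -0.66 and -0.49).

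Markers of the cells in the tissue are given beside the share of all genes tested that was called, 16.2% higher and 13.5% lower. The 12 hepatocyte markers held 3 called higher and 3 lower, the latter ranging from 1 to 5 with a liver left out. Their summed level ran from 72360 to 84580 CPM in FxrKO and from 155100 to 178000 CPM in Bcl6LKO FxrKO livers, of which *Alb* made up the larger part. The median log2 fold change of the 12 was -0.19, so the rise of the sum does not describe most of them. *Asgr1*, the asialoglycoprotein receptor, and *F2*, prothrombin, rose by 1.07 and 0.83, and *Ttr*, transthyretin, fell by 0.76 on the log2 scale (edgeR adjusted p = 5.65e-05, 1.68e-04 and 0.0022). *Serpina1e* went from 6384 ± 2184 to 171 ± 285 CPM (SD, n = 4 each), a log2 fold change of -5.22 (SE 1.40, edgeR adjusted p = 0.0338), and *Apob*, the main protein of very low density lipoprotein, had one of -0.45 (edgeR adjusted p = 0.0448), with their calls lost in 7 and 8 of 15 alternative analyses. Hepatocyte markers that were not called included *Hnf4a* and *Apoa1*, at log2 fold changes of -0.18 and -0.01. Of 12 stellate cell markers 9 were called higher and 0 lower, with a summed level between 262.9 and 360.6 CPM in FxrKO and between 547.9 and 641.4 CPM in Bcl6LKO FxrKO livers. *Rgs5* and *Dcn* rose by 1.09 and 1.05 on the log2 scale (edgeR adjusted p = 8.21e-05 and 1.45e-04). Macrophage markers had 3 of 12 called higher (*Lyz2*, *Cd68* and *Ccr2*, the last losing its call in 7 of 14 alternative analyses) and 0 lower, at 394.7 to 562.7 against 551.4 to 887.2 CPM in sum. Endothelial markers had 2 of 12 called higher (*Stab2* and *Eng*, the latter not called with total counts alone) and 0 lower, at 283.0 to 376.1 against 368.8 to 474.7 CPM in sum. Of 7 T cell markers with counts, *Lck* was the 1 that could be tested and it was called higher (log2 fold change 1.86, edgeR adjusted p = 0.00343), it did not pass the expression filter without Bcl6LKO FxrKO liver 3 or 4, and their sum was 1.999 to 2.71 against 5.44 to 8.81 CPM. None of the tested bile duct, stellate, macrophage, endothelial or T cell markers was called lower by edgeR, DESeq2 or limma voom. For edgeR, *Cldn4*, *Prom1* and *Lck*, among others, had enough counts only through the Bcl6LKO FxrKO livers and could hardly be called lower. At an unadjusted p under 0.05 edgeR gave 1 lower bile duct marker and 0 lower in each of the other 4 lists. The part of these cells in the levels of *Abcc4*, *Abcb1a* and the other transporters was not tested.

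**Figure D5:**
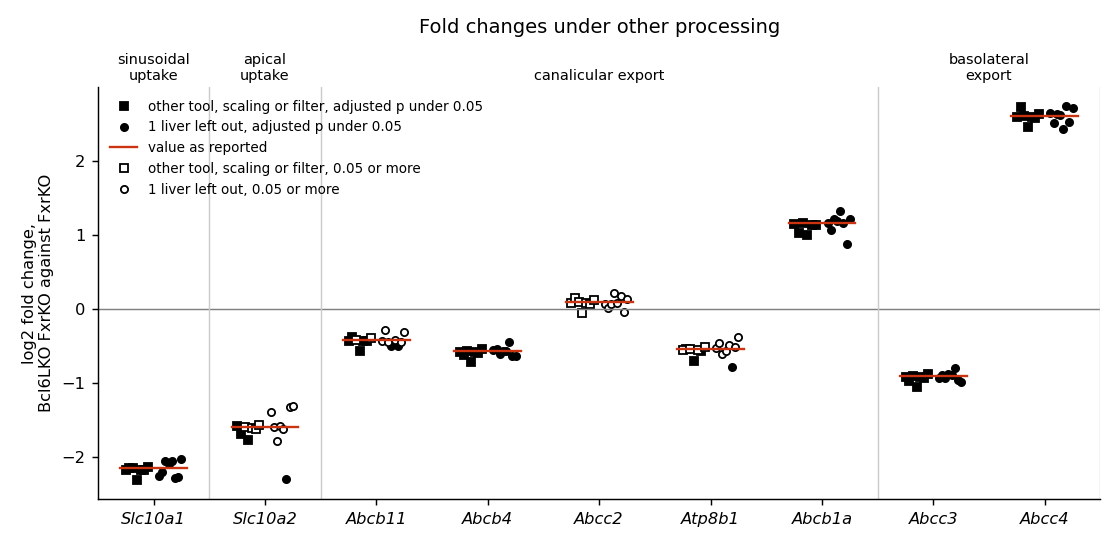
Log2 fold change of each transporter under other tools, scalings and filters (squares) and with 1 liver left out (circles), filled where the adjusted p was under 0.05, with a red line at the value as reported. *Slc10a1*, *Abcb4*, *Abcb1a*, *Abcc3* and *Abcc4* are filled throughout, *Slc10a2*, *Abcb11* and *Atp8b1* are mixed, and *Abcc2* is open and crosses 0.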

How the data were processed

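Liver RNA of 4 FxrKO and 4 Bcl6LKO FxrKO males was sequenced as 100 bp single-end reads from a stranded mRNA kit. STAR 2.5.2 placed them on mm10, where the authors allowed 4 mismatches and a single location for each read. Their deposited values are unnormalized exon counts made with HOMER 4.10, 1 transcript being kept for a gene. The stated options name no strand.

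All counts were analysed together in R 4.3.3 with edgeR 4.0.16 (filterByExpr, TMM factors, robust quasi-likelihood fits, Benjamini-Hochberg adjustment over 12340 genes), and calls were made at an adjusted p under 0.05. CPM use the TMM factors, and RPKM divide them by the deposited transcript length. Ratios added 0.5 to each count. Fits were tested on simulated data. Alternatives were DESeq2 1.42.0, limma 3.58.1 (voom with quality weights), other scalings and filters, a log2 fold change above 0.5 and each liver left out. Named genes were the transporters, their partners or paralogs, the targeted genes and up to 3 called genes per direction and list. Genes outside this rule (*Krt19*, *Sox9*, *Pkhd1*, *Hnf4a*, *Apoa1*, *Gclc*, *Gclm*, *Txnrd1*, *Slco2b1*, *Cyp7b1*) were chosen after their values were seen. The transporters and lists were chosen with earlier results of these data known. Promoters came from RefSeq and exon overlaps from GENCODE M21.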

Additional observations from a re-analysis of the deposited data

Results flagged for a closer look

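Within groups of 4 livers, 122 sets of values of named genes and ratios were checked for 1 liver far from the other 3, and 7 were found, where chance alone gives about 5% of sets. Each is given with the gap to the nearest liver as a share of the whole range. No transporter level was among them. The ratio of *Abcc4* to *Slc10a1* was high in FxrKO liver 1 (log2 ratio -6.13 against -6.81 to -6.75 in the others, share 0.904), which lies on the side of the Bcl6LKO FxrKO livers but far below them. In Bcl6LKO FxrKO liver 2, *Serpina1e*, a protease inhibitor gene with near-identical copies, was at 598 CPM against 25.8 to 34.8 CPM in the others (share 0.984), and *Prom1*, a bile duct and progenitor cell marker, was at 60.7 CPM against 18.02 to 23.3 CPM (share 0.877). *Ezr* was at 8.86 CPM in Bcl6LKO FxrKO liver 1 against 7.04 to 7.31 CPM in the others (share 0.854). In FxrKO liver 1, *Gstm3* was at 294 CPM against 160.1 to 181 CPM (share 0.845) and *Ephx1* at 579 CPM against 481 to 496 CPM (share 0.846). *Pdgfrb*, a stellate cell marker, was at 7.95 CPM in FxrKO liver 3 against 12.2 to 12.5 CPM in the others (share 0.929).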

How the results depend on the processing

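The 5 called transporters kept their direction and call in all the alternatives in which they were tested. With at least 10 counts in every liver 1 transporter was called higher in place of 2, since *Abcb1a* was left out by that filter. The number called lower was 3 as reported, 5 with DESeq2 and with no filter, 6 with limma voom and with total counts alone, and between 3 and 6 with 1 liver left out. *Slc10a2* gained a call with DESeq2 (-1.58), voom (-1.68) and total counts alone (-1.77), *Abcb11* with DESeq2 (-0.43), voom (-0.38), total counts alone (-0.58), the 50 most counted genes left out (-0.44) and no filter (-0.44), and *Atp8b1* with voom (-0.54), total counts alone (-0.70) and no filter (-0.56, all log2 fold changes). With 1 liver left out these ran from -2.30 to -1.31 for *Slc10a2*, from -0.51 to -0.28 for *Abcb11* and from -0.78 to -0.38 for *Atp8b1*. *Abcc2* reversed to -0.059 with total counts alone and ran from -0.039 to 0.22 with 1 liver left out. The difference of the log2 ratio *Abcb4*/*Abcb11* ran from -0.36 to 0.046, reversing without Bcl6LKO FxrKO liver 2, and the other 4 ratios kept their sign. Total counts alone shifted the median of all genes by -0.16 and called 1404 genes higher and 2949 lower, a share of 32.3% higher against 54.5% as reported, and the cause was not tested beyond the larger share of the 50 most counted genes given above. Of 636 values of the other 43 named genes that were called, 34 lost the call, mostly *Nfe2l2*, *Apob*, *Serpina1e* and *Ccr2*. Depth limits *Abcb1a*, *Abcb1b* and *Slc51b*. Livers were compared as unpaired groups. Their titles carry running numbers that place several livers of opposite genotype next to each other, while Bcl6LKO FxrKO liver 1 lies far from the rest. FxrKO liver 1 and Bcl6LKO FxrKO liver 2, which hold several of the values flagged above, have adjacent numbers. Whether such neighbours share a litter or a collection day is not stated, and an effect of this order was not tested.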
